A study of Mus musculus with 9 samples.

Results

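Hypoxia factor genes and their targets were described in SB28 glioblastoma cells and in the astrocytes with which they were co-cultured. The 10 genes were taken by name from the 49315 gene IDs of the count table, and each matched a single ID. They were Hif1a and Epas1, which encode the α subunits HIF-1α and HIF-2α of the hypoxia-inducible factor (HIF), the prolyl hydroxylase genes Egln1 and Egln3, and 6 genes known as HIF targets, Vegfa, Adm, Car9, Ndrg1, P4ha1 and P4ha2. The study addressed how mitochondria acquired from astrocytes change the tumor cells that receive them.

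RNA-seq was performed on 9 libraries, 3 from each of 3 sorted populations. SB28 is a single mouse glioblastoma line of C57BL6 background that expresses GFP, and no other tumor line was sequenced. The astrocytes were primary neonatal cells of the strain labelled C57BL6 (mito::mKate2), in which the red fluorescent protein mKate2 is sent to mitochondria by a signal peptide of cytochrome c oxidase. All cells, the controls included, had shared a co-culture of 2 days in medium with 2% FBS, 5% N2 supplement and 20 ng/ml EGF and FGF, and the labels describe them as untreated, so no culture lacked the other cell type. These medium shares are those of the labels, and the study's methods give other shares of FBS and N2 for the medium they name. The mKate2 transgene is driven by the ubiquitous CAG promoter, and the oxygen level of the cultures is not given in the sources used here. mKate2+ SB28 cells had acquired astrocyte mitochondria and mKate2- SB28 cells had not, as judged by fluorescence at sorting. Total counts were 24454561 to 35135662 in the astrocyte libraries, 27187348 to 35891589 in the mKate2- libraries and 34175016 to 39287841 in the mKate2+ libraries. Per the study's methods, the cells came from 3 separate co-cultures, each of which is a biological replicate, so P values measure the spread between co-cultures.

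HIF is a transcription factor made of an oxygen-regulated α subunit and a constitutive partner, ARNT or ARNT2. In the presence of oxygen, the EGLN prolyl hydroxylases mark the α subunit for binding by the VHL protein, which leads to its ubiquitination and degradation, and the asparaginyl hydroxylase encoded by Hif1an limits what remains active. When oxygen falls, the α subunit accumulates as a protein and raises genes for glycolysis, vessel growth, pH control and collagen modification, and Egln3 is itself a target. Control of the α subunits is thus largely at the protein level, which mRNA counts do not measure.

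The core sequence that HIF binds is ACGTG or GCGTG, and it was looked for on both strands in the 250 bases before the start of each gene, taken from RefSeq for GRCm38.p6. Of the 10 genes, 8 were matched, and Epas1 and Ndrg1 were not. At least 1 copy was found in 7 of these 8, whereas 38.6% of 32851 promoters held either motif (16.6% ACGTG and 28.2% GCGTG). The windows of Hif1a, P4ha1 and P4ha2 held 3 copies each, those of Egln1 and Adm 2, those of Egln3 and Car9 1, and that of Vegfa 0. Vegfa had 2 promoters among the sequences used and the other matched genes 1 each, and the value for Vegfa is that of 1 promoter only. The 3 copies of Hif1a include an overlapping pair, CACGTG, which reads the same on both strands. Sequences are shown for Egln3, P4ha1 and Car9, the 3 genes that were highest in the library numbered 2 of every population, as described below. Capitals mark the motif on either strand, and positions are those of the leftmost base of a motif, with -1 the base before the gene start. The Egln3 window lies at chr12:54203875-54204124 on the minus strand with the motif at -229, the P4ha1 window at chr10:59323046-59323295 on the plus strand with motifs at -163, -126 and -16, and the Car9 stretch of 30 bases at chr4:43506996-43507025 on the plus strand with the motif at -18. A match is a string of letters and not a binding site. These starts are those of RefSeq. The GENCODE annotation, used for the gene positions given at the end, starts Hif1a, Egln1, Car9 and P4ha2 further upstream, so the Car9 stretch and the windows of these genes lie wholly or partly within the gene there.
Egln3: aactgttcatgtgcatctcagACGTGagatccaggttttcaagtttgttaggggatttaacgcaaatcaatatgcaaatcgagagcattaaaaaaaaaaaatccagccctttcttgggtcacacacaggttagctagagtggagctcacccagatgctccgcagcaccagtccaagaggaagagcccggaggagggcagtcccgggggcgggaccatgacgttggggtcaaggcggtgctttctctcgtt
P4ha1: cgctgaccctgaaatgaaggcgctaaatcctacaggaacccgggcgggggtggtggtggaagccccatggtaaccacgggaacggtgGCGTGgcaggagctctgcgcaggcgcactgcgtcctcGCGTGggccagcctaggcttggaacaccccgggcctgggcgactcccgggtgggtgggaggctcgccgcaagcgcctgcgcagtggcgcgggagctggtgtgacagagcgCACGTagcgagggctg
Car9: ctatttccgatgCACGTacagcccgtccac

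The identity of the populations was checked with marker genes. Slc1a3, an astrocyte glutamate transporter, was at 173, 177 and 236 CPM (the count relative to the total count of its library) in the astrocyte libraries and at 0.56 to 2.38 CPM in the 6 SB28 libraries. Of 10 astrocyte markers, 8, 8 and 9 exceeded 1 CPM in astrocyte replicates 1 to 3, where they summed to 577, 526 and 1144 CPM, and they summed to 88.5 to 125 CPM in SB28, mostly Sox9 at 75.3 to 111 CPM. Gfap, the glial filament gene, was at 8.83, 3.42 and 19.4 CPM in astrocytes, and Gjb6 was at 0 counts in all 9 libraries. Oligodendrocyte lineage genes were present in the astrocyte libraries, with Olig1 at 541, 241 and 304 CPM and the 10 listed markers of that lineage summing to 975, 521 and 591 CPM, and summing to between 28.7 and 36.4 CPM in SB28. The 10 endothelial markers summed to at most 21.2 CPM in any library, Tie1 was at 0 in all 9, and Esam was the most abundant of them in astrocytes at up to 19.0 CPM. The 10 fibroblast and pericyte markers, led by Col1a1, summed to 418 to 511 CPM in astrocytes and 233 to 374 CPM in SB28, and the neuronal markers to 56.8 to 106 and 38.9 to 49.2 CPM. The microglial sums of 38.2 to 64.8 CPM over all libraries were mostly Tmem119, and Vim, the progenitor marker with the highest level, was at 6794 to 12330 CPM. The part of such cells in the levels below was not tested. In bulk RNA, fewer cells of a type and less RNA per cell cannot be told apart.

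Of the libraries, 2 stood apart from others of their group. In astrocyte replicate 3, Aqp4 was at 59.7 CPM against 5.64 and 6.82 in the other 2. mKate2+ replicate 2 had 0.556% of its counts from the mitochondrial genome, the lowest share of the 9 libraries, and Elob, a short gene, was at 168 CPM there against 56.45 to 64.1 CPM in the other SB28 libraries. Where leaving out either library changed a call of a gene named below, the value without it is given.

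**Figure D1:**
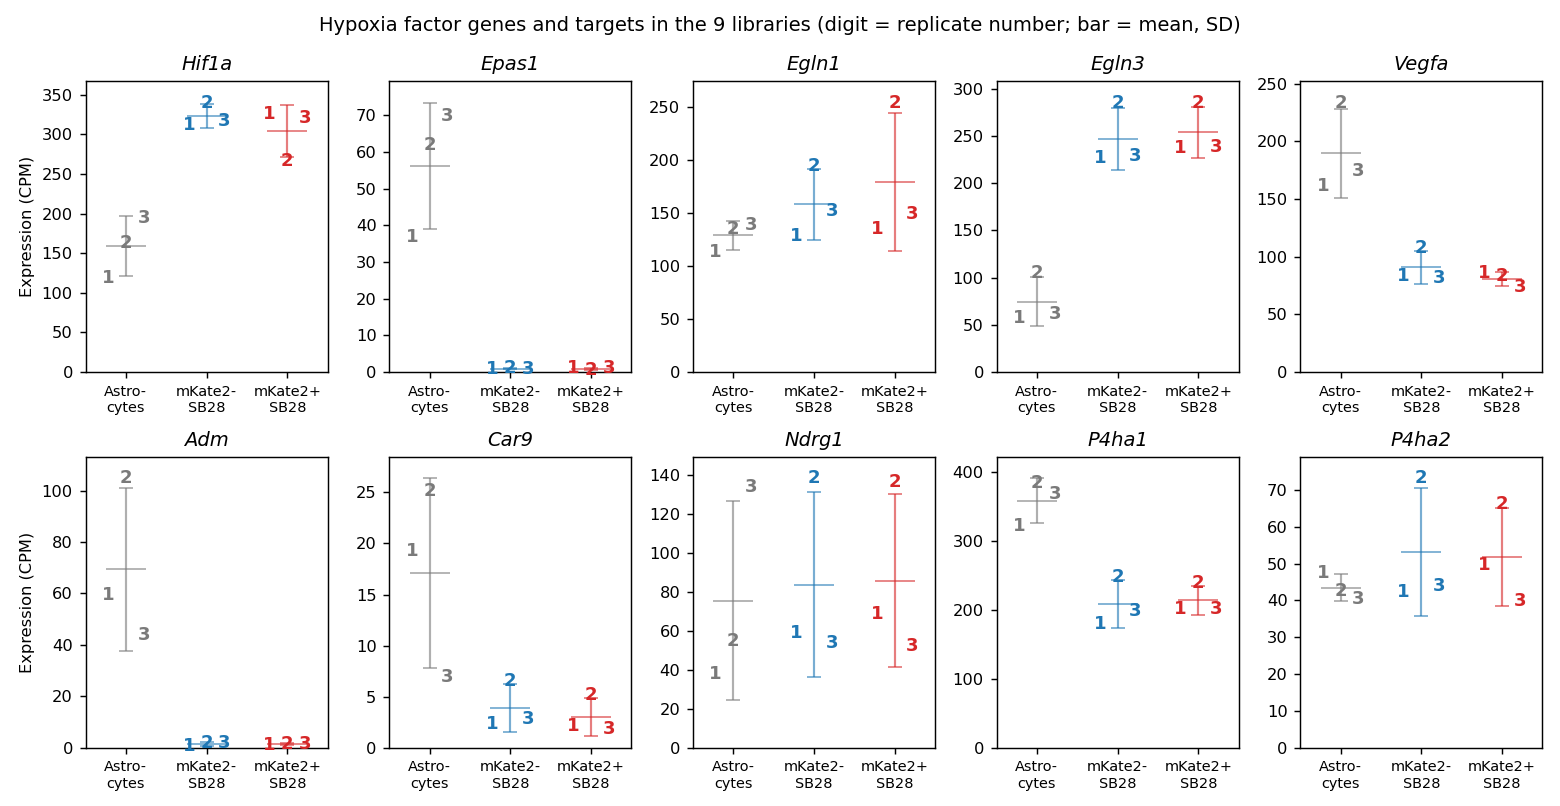
Expression (CPM, linear axes) of the 10 genes in every library, where each digit is a library placed at its value and named by its replicate number, the horizontal bar is the mean of 3 libraries and the whiskers are the SD. Epas1 and Adm lie close to 0 in all 6 SB28 libraries, Hif1a and Egln3 are higher there than in astrocytes, and the digit 2 is the uppermost of both SB28 groups for Egln1, Egln3, Car9, Ndrg1, P4ha1 and P4ha2.

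Tumor cells and astrocytes were first compared for the α subunits, by the quasi-likelihood test of edgeR, with P values adjusted over all genes tested after Benjamini and Hochberg. A gene was called when its adjusted P value was below 0.05 and its log2 fold change exceeded 1 in size. Hif1a was higher and Epas1 much lower in SB28 cells, with and without acquired mitochondria. Of the 10 genes, 2 were called higher and 4 lower in each comparison, against 11.5% higher and 22.4% lower of 13356 genes for mKate2- cells and 12.2% higher and 22.8% lower of 13342 genes for mKate2+ cells. By the adjusted P value alone, 7 of the 10 differed in each, against 63.1% and 60.1% of all genes, which is near the background. Both comparisons used the same astrocyte libraries.

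Hif1a was at 119, 163 and 195 CPM in astrocytes, at 312, 340.0 and 317 CPM in mKate2- cells and at 326, 267 and 320.0 CPM in mKate2+ cells. Every SB28 library lay above every astrocyte library, and astrocyte replicate 1 was the lowest of the 9. The log2 fold change over astrocytes was 1.04 (SE 0.17, edgeR adjusted P = 0.001) in mKate2- cells and 1.01 (SE 0.18, edgeR adjusted P = 0.00217) in mKate2+ cells. These sizes sit at the fold threshold of the call, and without astrocyte replicate 1 they were 0.87 and 0.84 and the call was lost, as it was in mKate2+ cells without mKate2+ replicate 1 or 3, at 0.98 and 0.99. The adjusted P value was below 0.05 in all 14 alternatives for both comparisons.

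Epas1, the α subunit first described in endothelium, was at 36.7, 61.8 and 69.9 CPM in astrocytes. It was at 0.92, 1.00 and 0.704 CPM in mKate2- cells and at 1.05, 0.611 and 1.05 CPM in mKate2+ cells, which is 21 to 38 counts per library. No SB28 library came near the astrocyte range. The level was 62.7-fold lower in mKate2- cells (log2 fold change -5.97, SE 0.30, edgeR adjusted P = 8.44e-06) and 58.9-fold lower in mKate2+ cells (log2 fold change -5.88, SE 0.33, edgeR adjusted P = 1.41e-05). In the comparison of mKate2- cells Epas1 passed the filter of 1 CPM in 2 libraries only through the astrocytes, so that no higher call was possible there, whereas 2 mKate2+ libraries passed it on their own. As a share of the astrocyte mean, Epas1 in mKate2- replicates 1 to 3 was 1.64%, 1.79% and 1.25%, where Slc1a3 was 0.566%, 0.486% and 1.22%. In mKate2+ replicates 1 to 3, Epas1 was 1.88%, 1.09% and 1.88% and Slc1a3 0.427%, 0.287% and 0.570%. Other genes of the astrocyte libraries gave other shares. Aldh1l1 was at 3.485% to 6.01% in SB28, above Epas1 in every library. Olig1 and Olig2 were at 1.78% and 1.52% in mKate2- replicate 3, above Epas1 there, and at 0.30% to 0.89% in the other SB28 libraries, below it. The part of astrocyte RNA in the residual Epas1 counts was not tested.

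Per kilobase of exonic length, the scale on which genes can be compared with one another, the α subunits differed in their balance. In astrocytes Hif1a was at 26.9 ± 6.47 and Epas1 at 10.04 ± 3.09 CPM per kb (SD, n = 3), and Epas1 made up 26.9% ± 2.06 of their sum (SD, n = 3). In SB28 it made up 0.284% ± 0.0442 (SD, n = 3) in mKate2- and 0.309% ± 0.0588 (SD, n = 3) in mKate2+ cells. Hif3a, the remaining α subunit gene, had at most 5 counts in any library and was not tested.

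The ARNT partners showed a second shift of this kind. Arnt2, the partner typical of brain tissue, was at 266.5, 316.5 and 298.7 CPM in astrocytes and between 10.98 and 16.7 CPM in the 6 SB28 libraries. Its level was 20.9-fold lower in mKate2- cells (log2 fold change -4.39, SE 0.18, edgeR adjusted P = 4.48e-06), and the log2 fold change was -4.28 in mKate2+ cells (SE 0.14, edgeR adjusted P = 4.92e-06). Arnt, the widely expressed partner, was at 55.1, 70.6 and 67.0 CPM in astrocytes and at 73.6 to 97.6 CPM in SB28, with log2 fold changes of 0.56 (SE 0.11) and 0.49 (SE 0.13) and adjusted P values of 0.00301 and 0.0153, short of the fold threshold. Arnt2 made up 82.7% ± 0.645 (SD, n = 3) of the summed level per kb of the partners in astrocytes, 13.4% ± 2.17 (SD, n = 3) in mKate2- and 14.9% ± 1.86 (SD, n = 3) in mKate2+ cells. Among the coactivator genes, neither Ep300, at log2 fold changes of 0.59 and 0.34, nor Crebbp, at -0.29 and -0.29, nor Cited2, which encodes an inhibitor of HIF binding to p300 and stood at -0.85 and -0.73, met the call. Without astrocyte replicate 3, where Cited2 was at 105.5 CPM against 256 and 216.5 CPM in the other astrocyte libraries, it was called lower, at -1.15 and -1.05 (edgeR adjusted P = 0.000126 and 0.00199).

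**Figure D2:**
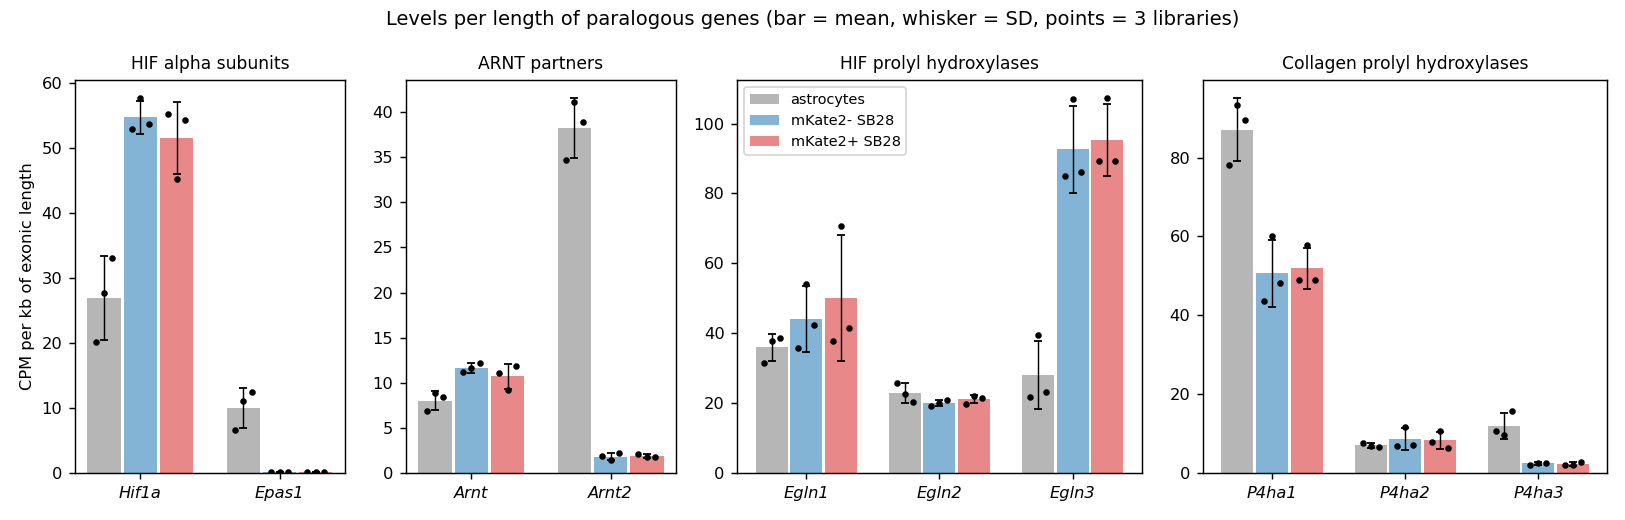
Level in CPM per kb of exonic length (linear axis from 0) of the HIF α subunits, their ARNT partners, the HIF prolyl hydroxylases and the collagen prolyl hydroxylases in astrocytes, mKate2- SB28 and mKate2+ SB28 cells, with bars for the mean, whiskers for the SD and a point for each of 3 libraries. Epas1 and Arnt2 are low in both SB28 populations, and the EGLN gene with the highest mean level per length is Egln1 in astrocytes, with Egln3 above it in replicate 2, and Egln3 in SB28.

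The oxygen sensors differed between themselves. Egln3, whose product has been described as the hydroxylase most strongly induced by hypoxia, was at 57.6, 105 and 61.7 CPM in astrocytes, at 226, 285 and 229 CPM in mKate2- cells and at 238, 285 and 238 CPM in mKate2+ cells. The groups did not overlap, and in all 3 populations the library numbered 2 was the highest. The level was 3.35-fold higher in mKate2- cells (log2 fold change 1.74, SE 0.23, edgeR adjusted P = 0.000427) and 3.60-fold higher in mKate2+ cells (log2 fold change 1.85, SE 0.25, edgeR adjusted P = 0.000525). Both calls held in all 14 alternatives.

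Egln1, which encodes the main oxygen sensor of most cells, was at 113, 136 and 139 CPM in astrocytes, at 129, 195 and 152 CPM in mKate2- cells and at 136, 254 and 149 CPM in mKate2+ cells. The groups overlapped, and it was called in neither comparison (log2 fold change 0.31, SE 0.16, edgeR adjusted P = 0.13, and 0.57, SE 0.26, edgeR adjusted P = 0.0956). Without mKate2+ replicate 2 the log2 fold change of the latter was 0.19. Egln2 was at 56.5 to 72.4 CPM in astrocytes and at 53.4 to 62.0 CPM in SB28. Per kb, Egln3 made up 31.7% ± 6.72 (SD, n = 3) of the 3 EGLN genes in astrocytes, 59.2% ± 1.57 (SD, n = 3) in mKate2- and 57.7% ± 3.73 (SD, n = 3) in mKate2+ cells.

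Among the other genes of α subunit turnover, Cul2, the cullin scaffold of the VHL ubiquitin ligase, was called higher in both comparisons, at 54.8, 64.5 and 67.3 CPM in astrocytes against 95.2 to 139.6 CPM in SB28 (log2 fold changes 1.09, SE 0.10, edgeR adjusted P = 9.07e-05, and 1.02, SE 0.15, edgeR adjusted P = 0.000889). In mKate2+ cells the call was lost without astrocyte replicate 1 or mKate2+ replicate 3, at 0.93 and 0.91. Hif1an was at log2 fold changes of 0.95 (SE 0.14) and 0.99 (SE 0.15), with adjusted P values of 0.000662 and 0.000907, just short of the fold threshold, which it passed without astrocyte replicate 3 (1.003 and 1.02) and, in mKate2+ cells, without mKate2+ replicate 2 (1.02). Vhl, the substrate receptor, stood at -0.45 and -0.43 and was not called. Its partners Elob, Eloc and Rbx1 were not called either, and in mKate2+ replicate 2 each of them exceeded every other SB28 library.

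**Figure D3:**
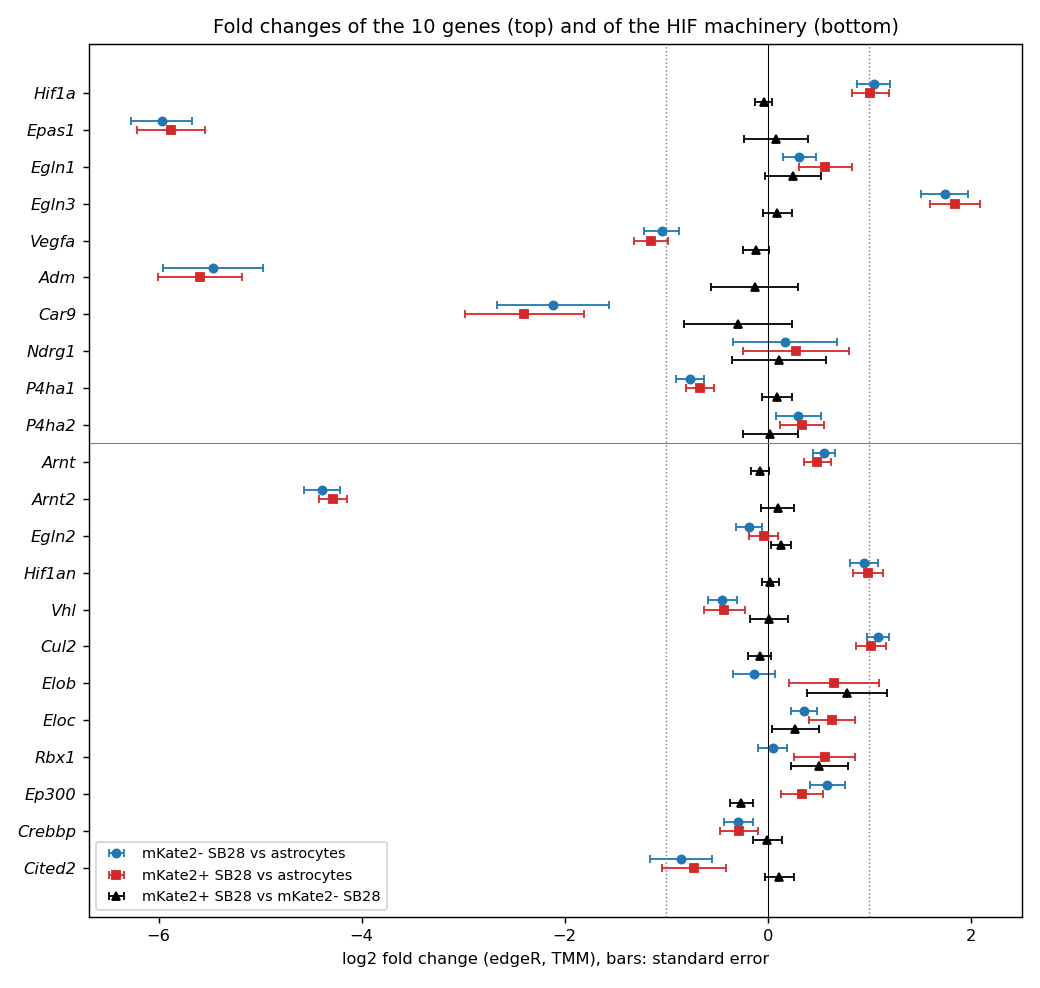
log2 fold change with its standard error (edgeR, TMM) of the 10 genes, above the line, and of the HIF partners, coactivators and oxygen-sensing genes, below it, for each of the 3 comparisons, with dotted lines at a log2 fold change of 1 in each direction. The changes against astrocytes of mKate2- and mKate2+ cells lie next to each other, from -5.97 for Epas1 to 1.85 for Egln3, and those between the 2 SB28 populations lie within -0.29 and 0.25 for the 10 genes.

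Among the secreted products, Vegfa, the main angiogenic factor of the family, was at 161, 234 and 174 CPM in astrocytes, at 82.8, 107 and 81.9 CPM in mKate2- cells and at 85.8, 82.9 and 74.1 CPM in mKate2+ cells. Every SB28 library lay below every astrocyte library. The log2 fold change was -1.05 (SE 0.17, edgeR adjusted P = 0.0012) in mKate2- and -1.15 (SE 0.16, edgeR adjusted P = 0.000727) in mKate2+ cells. As for Hif1a, the size is at the fold threshold, and without astrocyte replicate 2 it was -0.89 and -0.99 and the call was lost, as it was in mKate2- cells without mKate2- replicate 1 or 3, at -0.98 and -0.97, and without a low-count filter, at -0.99, whereas the adjusted P value was below 0.05 in all 14 alternatives.

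Of 8 other listed genes of the VEGF family and its receptors, 7 were tested, and Kdr was below the filter. Vegfc, the lymphangiogenic factor, was called higher in both comparisons, at 2.25, 4.95 and 6.35 CPM in astrocytes and 10.8 to 14.0 CPM in SB28 (log2 fold changes 1.43 and 1.53, edgeR adjusted P = 0.00731 and 0.00768), and the coreceptor gene Nrp2 was likewise called higher (log2 fold changes 1.48 and 1.44, edgeR adjusted P = 0.000233 and 0.000424). Vegfb, Vegfd, Flt4 and Nrp1 were called in neither comparison, so 2 of 7 tested genes were called higher and 0 lower in each, beside 11.5% and 12.2% higher and 22.4% and 22.8% lower of all genes. Vegfd passed the call without astrocyte replicate 3, at 1.16 and 1.02 compared with 0.96 and 0.83. Flt1, which encodes VEGF receptor 1, was at 5.64, 12.4 and 192 CPM in astrocytes and at 47.5 to 60.2 CPM in SB28. Astrocyte replicate 3 decided its direction, at a log2 fold change of -0.31 for mKate2- cells with that library and 2.61 without it.

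Adm, which encodes the vasodilator peptide adrenomedullin, was at 59.6, 105 and 43.7 CPM in astrocytes. It was at 0.662, 1.92 and 2.01 CPM in mKate2- cells and at 0.971, 1.63 and 1.46 CPM in mKate2+ cells, from 18 to 69 counts per library. The groups were far apart, and the level was 44.1-fold lower in mKate2- cells (log2 fold change -5.46, SE 0.49, edgeR adjusted P = 6.65e-05) and 48.2-fold lower in mKate2+ cells (log2 fold change -5.59, SE 0.41, edgeR adjusted P = 4.01e-05). Its receptor is the product of Calcrl joined to a RAMP protein. Ramp3 was called higher in both comparisons, at 10.9, 9.75 and 6.06 CPM in astrocytes and 37.4 to 60.5 CPM in SB28 (log2 fold changes 2.41 and 2.64, edgeR adjusted P = 0.000158 and 0.000251). Ramp1 was called lower, with log2 fold changes of -2.11 and -1.91. Ramp2, at 2.13, 1.19 and 1.76 CPM in astrocytes and at most 1 count in any SB28 library, passed the filter only through the astrocytes, so its lower call follows from the filter, and it shares 33.4% of its exonic length with Vps25. Calcrl, at 2.86, 7.25 and 13.4 CPM in astrocytes and 2.34 to 4.24 CPM in SB28, was not called.

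Car9, which encodes a carbonic anhydrase of the cell surface used as a hypoxia marker, was at 19.3, 25.1 and 6.97 CPM in astrocytes, at 2.28, 6.55 and 2.85 CPM in mKate2- cells and at 2.11, 5.17 and 1.81 CPM in mKate2+ cells. The groups did not overlap, although astrocyte replicate 3 lay just above mKate2- replicate 2, and the library numbered 2 was the highest in all 3 populations. The log2 fold change was -2.11 (SE 0.55, edgeR adjusted P = 0.0113) in mKate2- and -2.40 (SE 0.59, edgeR adjusted P = 0.00934) in mKate2+ cells. Without mKate2- replicate 2 the former was -2.72, and the latter was -3.08 without mKate2+ replicate 2 and -2.80 without astrocyte replicate 3, and the call held with any 1 library left out (-2.72 to -1.76 and -3.08 to -2.04). Of the other carbonic anhydrases, 5 passed the low-count filter and 3 of these were called lower in each comparison, beside 22.4% and 22.8% of all genes, although Car2 and Car8 passed the filter only through the astrocytes, so that for these genes no other call was possible. Car2, the abundant cytosolic form of glia, was at 24.9, 32.0 and 36.3 CPM in astrocytes and 0.176 to 0.603 CPM in SB28 (log2 fold changes -6.24 and -6.55, edgeR adjusted P = 8.48e-06 and 9.19e-06). Car11 was at log2 fold changes of -3.88 and -3.60, and Car8 was at 0.887 to 2.88 CPM in astrocytes and at most 0.263 CPM in SB28. Car5b and Car13 were not called, and Car13 was called higher without astrocyte replicate 3, at 2.70 and 2.82 compared with 1.56 and 1.68.

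Ndrg1, a stress-responsive gene, was at 37.7, 54.9 and 134 CPM in astrocytes, at 59.0, 138 and 53.7 CPM in mKate2- cells and at 68.6, 136 and 52.5 CPM in mKate2+ cells. Within each population a single library was at more than 130 CPM, numbered 3 in astrocytes and 2 in both SB28 groups. The populations overlapped, and neither comparison gave a call (log2 fold change 0.17, SE 0.51, edgeR adjusted P = 0.787, and 0.28, SE 0.52, edgeR adjusted P = 0.656). Without astrocyte replicate 3 the log2 fold changes were 0.86 and 0.96, with edgeR adjusted P values of 0.0934 and 0.0908. Its 3 relatives were called lower in both comparisons, beside 22.4% and 22.8% of all genes, Ndrg2 at log2 fold changes of -1.35 and -1.25, Ndrg3 at -1.51 and -1.40 and Ndrg4 at -1.85 and -1.94.

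The collagen prolyl 4-hydroxylases, which use oxygen to stabilize the collagen triple helix, differed by subunit. P4ha1 was at 322, 384 and 368 CPM in astrocytes, at 179.8, 247 and 198 CPM in mKate2- cells and at 202, 238 and 201 CPM in mKate2+ cells. The groups did not overlap, and the log2 fold changes of -0.76 (SE 0.14, edgeR adjusted P = 0.00219) and -0.66 (SE 0.14, edgeR adjusted P = 0.00483) passed the adjusted P value but not the fold threshold. P4ha2 was at 47.4, 42.7 and 40.3 CPM in astrocytes, at 42.3, 73.2 and 43.8 CPM in mKate2- cells and at 49.5, 66.1 and 39.7 CPM in mKate2+ cells, with overlapping groups and no call (log2 fold changes 0.30, SE 0.22, and 0.34, SE 0.22). P4ha3 was called lower, at 33.6, 29.9 and 49.3 CPM in astrocytes and 5.91 to 8.81 CPM in SB28 (log2 fold changes -2.31 and -2.34). Per kb, P4ha1 made up 82.1% ± 2.64, 82.5% ± 1.47 and 83.2% ± 0.971 (SD, n = 3 each) of the 3 α subunit genes in astrocytes, mKate2- and mKate2+ cells.

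To place the 10 genes among other HIF targets, 64 genes in 5 lists were read in the same fits, of which 60 passed the filter. In mKate2- cells 7 were called higher and 12 lower, which is near the 11.5% and 22.4% of all genes, with a median log2 fold change of -0.10 compared with -0.04 over all genes. In mKate2+ cells 8 were called higher and 12 lower, near the 12.2% and 22.8% of all genes, with a median of 0.01 compared with -0.02 over all genes. Among the 12, Cox4i2, Stc1, Edn1 and Cxcr4 passed the filter only through the astrocytes, so they could not have been called higher. The 41 and 40 others were not called. The lists below are described by their members, since such counts are to be read against these shares.

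Of 20 glycolytic targets, 0 were called higher and 4 lower, which for the lower calls is about the share of all genes (22.4% and 22.8%). The 4 were the same in both comparisons. They were Aldoc, Slc16a3, Pfkfb3 and Eno2, and the lactate exporter gene Slc16a3 was at 47.6, 52.1 and 47.3 CPM in astrocytes and 2.32 to 4.76 CPM in SB28 (log2 fold changes -3.89 and -3.67, edgeR adjusted P = 2.66e-05 for mKate2- cells). Aldoc, the brain aldolase, had log2 fold changes of -5.94 and -6.14. They were -4.21 and -4.43 when astrocyte replicate 3 was left out. Ldha, which encodes the subunit of lactate dehydrogenase that favors lactate, was at 1363 to 2033 CPM in astrocytes and 1664 to 2439 CPM in SB28. Of 7 tested mitochondrial and survival targets, Cox4i2, a hypoxic subunit of cytochrome c oxidase, was called lower in both comparisons, beside 22.4% and 22.8% of all genes. Cox4i2 was at 5.56, 1.93 and 2.05 CPM in astrocytes and at most 0.166 CPM in SB28, and it passed the filter only through the astrocytes.

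Among 7 tested secreted and vascular targets, Stc2 and Mif were called higher and Stc1, Igfbp3 and Edn1 lower in both comparisons. The shares of all genes were 11.5% and 12.2% higher and 22.4% and 22.8% lower. Stc1 and Edn1 passed the filter only through the astrocytes, so no higher call was possible for them. Stc2 encodes a stanniocalcin and had log2 fold changes of 1.57 and 1.69. Mif, a cytokine gene, had 1.16 and 1.93, with 1.23 in mKate2+ cells without their replicate 2 and 0.96 in mKate2- cells without astrocyte replicate 3. Stc1 was at 1.88, 2.57 and 84.2 CPM in astrocytes, so its log2 fold change of -5.42 in mKate2- cells was -1.72 without astrocyte replicate 3. The call of Stc1 was lost without any single mKate2- library, with edgeR adjusted P values of 0.0559 to 0.0598, and in mKate2+ cells without mKate2+ replicate 2, at 0.0538. Igfbp3, which encodes an IGF-binding protein, was at 8667, 8100 and 5310 CPM in astrocytes and 743 to 883 CPM in SB28. Edn1, the endothelin-1 gene, had log2 fold changes of -3.63 and -3.72.

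Among 8 matrix targets, Loxl4 was called higher (log2 fold changes 1.98 and 1.87) and Loxl2 lower (-1.66 and -1.83), beside P4ha3, whereas Lox was called in neither comparison. These are 1 higher and 2 lower calls in each, beside 11.5% and 12.2% higher and 22.4% and 22.8% lower of all genes. Among 18 transcriptional and other targets, 4 were called higher and 2 lower in each comparison, beside 11.5% and 12.2% higher and 22.4% and 22.8% lower of all genes. Tmem45a (2.45 and 2.55 on the log2 scale) and Tfrc, the transferrin receptor gene (2.30 and 2.31), were the highest, whereas the chemokine receptor gene Cxcr4 (-4.92 and -4.70) and the nuclear receptor gene Rora (-2.37 and -2.44) were lower.

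mKate2+ and mKate2- SB28 cells were then compared directly, to ask whether acquired mitochondria went with a change in these genes. A gene was called here when it changed by more than 1.5-fold, with P below 0.05 before adjustment and a normalized count that averaged above 50. Epas1, at mean normalized counts of 30.9 in mKate2+ and 29.1 in mKate2- cells, was below that count. Adm, at 46.9 and 50.75, averaged just under it, so neither gene could be called whatever its change. Of the 10 genes 0 were called by edgeR, against 0.363% of the 11854 genes tested, of which 23 were higher and 20 lower, or 13 and 20 with the trend with gene length removed, 62 and 21 with DESeq2 and 13 and 33 with the replicate number as a block, under which 0 of the 10 were called as well. At an unadjusted P value below 0.05 there were also 0 of the 10 and 2.03% of all genes, and 0 genes passed an adjusted P value of 0.05.

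The 95% intervals of the log2 fold change bound what could have gone unseen in the fit without a replicate block. For Hif1a the difference was -0.04 with an interval from -0.24 to 0.16, for Vegfa -0.11 (-0.42 to 0.19), for Egln3 0.10 (-0.23 to 0.42) and for P4ha1 0.09 (-0.25 to 0.44), which are the narrowest of the 10. They were wider for Epas1, at 0.08 (-0.65 to 0.81), Egln1, at 0.25 (-0.39 to 0.89), and P4ha2, at 0.02 (-0.60 to 0.65). The widest were those of Adm, at -0.13 (-1.12 to 0.86), Ndrg1, at 0.11 (-0.96 to 1.18), and Car9, at -0.29 (-1.51 to 0.93). Changes of 1.5-fold were thus within the intervals of 6 of the 10 genes and outside those of Hif1a, Vegfa, Egln3 and P4ha1. These intervals include any spread shared by libraries of the same number, and intervals with a replicate block were not computed. For numbers 1 to 3, the log2 ratios of mKate2+ over mKate2- were 0.22, -0.02 and -0.03 for Ndrg1. They were 0.23, -0.15 and -0.14 for P4ha2, but 0.20, -0.72 and 0.58 for Epas1 and 0.55, -0.24 and -0.46 for Adm.

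Car9 was the gene for which a single library mattered most. It was lower in the mKate2+ than in the mKate2- library of every number, with log2 ratios of -0.11, -0.34 and -0.65, yet the spread between numbers exceeded these. Without mKate2+ replicate 2 the log2 fold change was -1.003 (edgeR unadjusted P = 0.0443, adjusted P = 0.9998) and the gene met the criteria for a lower call, without mKate2- replicate 2 it was 0.33, and without both it was -0.38. The estimates of Egln1, Ndrg1 and P4ha2 changed sign in the same way, at -0.15, -0.47 and -0.25 without mKate2+ replicate 2 and 0.43, 0.69 and 0.33 without mKate2- replicate 2, and none was called. No gene of the other lists was called either, with 0 of 56 tested HIF targets. By the smallest P value, the listed genes were Pfkfb2 among those lower in mKate2+ cells (log2 fold change -0.48, edgeR unadjusted P = 0.027, adjusted P = 0.923) and Plod3 among those higher (0.19, edgeR unadjusted P = 0.0825).

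Within SB28, the larger differences in these genes were between libraries and not between populations. Both SB28 libraries numbered 2 lay above the other 4 SB28 libraries for Egln1, Egln3, Car9, Ndrg1, P4ha1 and P4ha2, that is for 6 of the 10 genes, against 8.14% of the 11854 genes tested. For the libraries numbered 1 and 3 the same held for 0 of the 10 genes each, against 7.07% and 13.4% of all genes. Hif1a, Epas1, Vegfa and Adm did not show it. The transcripts of both α subunits were thus outside the pattern, and 6 of the 8 sensor and target genes were in it.

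Of the 56 other HIF targets tested in SB28, 30 (53.6%) had both libraries numbered 2 above the other 4, compared with 3 in those numbered 1 and 2 in those numbered 3. The shares of all genes were 8.14% for number 2, 7.07% for number 1 and 13.4% for number 3. The lists were chosen with earlier results of these data known, and the comparison by number after seeing the data. The 30 included 13 of 20 glycolytic genes, among them Pgk1, Ldha, Aldoa, Pdk1 and the glucose transporter gene Slc2a1, and 5 of 6 mitochondrial and survival genes, among them the mitophagy receptor genes Bnip3 and Bnip3l. Of the secreted and vascular genes there was 1 of 5, of the matrix genes 3 of 8 and of the transcriptional and other genes 8 of 17. As a median over the 56 genes, log2(CPM + 1) was 0.18 above the mean of the 6 SB28 libraries in mKate2- replicate 2 and 0.17 above it in mKate2+ replicate 2, and between -0.17 and -0.05 in the other 4. Over all genes tested the medians were 0.02 in mKate2- replicate 2 and -0.10 in mKate2+ replicate 2. Taken alone, mKate2- replicate 2 was the highest of its group for 9 of the 10 genes, Adm being the exception, and for 45 of the 56 targets, against 32.4% of all genes. mKate2+ replicate 2, the library that stood apart, was the highest of its group for 7 of the 10 genes and 34 of the 56 targets, against 29.1%. Astrocyte replicate 2 was the highest of its group for 5 of the 10 genes, Car9, Adm, P4ha1, Egln3 and Vegfa, against 27.3%, and 3 of the 10, Egln3, Car9 and P4ha1, were highest in the library numbered 2 of all 3 populations, against 2.82%. All 3 populations were sorted from the same set of 3 co-cultures, but the sources used here do not say that a number names a co-culture, and the part of library properties in the pattern was not tested. Both SB28 libraries numbered 2 had the highest total count of their group, 35891589 and 39287841, and the lowest mitochondrial share, 0.842% against 1.00% and 1.23% in mKate2- cells and 0.556% against 1.38% and 1.52% in mKate2+ cells.

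A test of the replicate number, with the population as a covariate, was added after the pattern had been seen and is no independent evidence of it. By the quasi-likelihood F test of edgeR on the 6 SB28 libraries, 0 of 11854 genes passed at an adjusted P below 0.05. Unadjusted P values were below 0.05 for 8 of the 10 genes and 32 of 56 targets, against 9.5% of all genes. Ndrg1 had the smallest P value of all genes (edgeR unadjusted P = 1.48e-05, adjusted P = 0.176), with a log2 difference of 1.17 between numbers 2 and 1. In the 8 libraries left without mKate2+ replicate 2, astrocytes included, the counts were 3 of the 10 genes and 18 of 60 targets, against 4.71% of all genes.

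**Figure D4:**
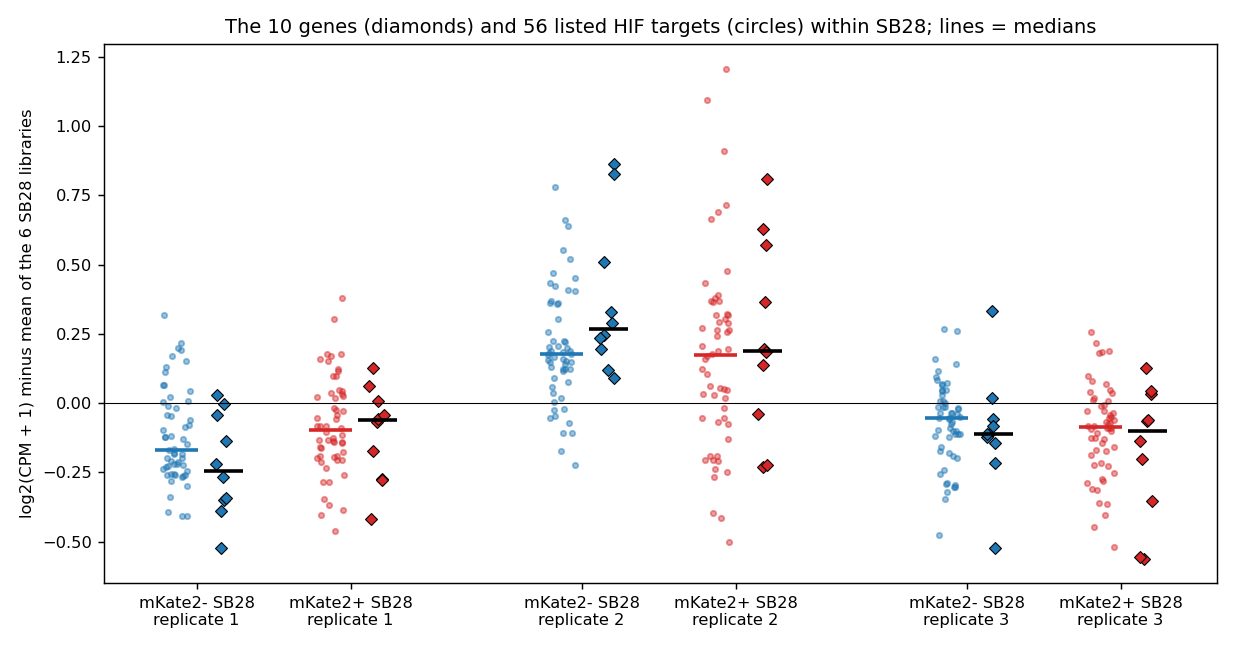
log2(CPM + 1) of each gene minus its mean over the 6 SB28 libraries, for the 10 genes (diamonds, black lines for medians) and 56 listed HIF targets (circles, colored lines for medians), with mKate2- libraries in blue and mKate2+ libraries in red, side by side for each replicate number. The medians of both libraries numbered 2 lie above 0 and those of the other 4 below it.

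The genes whose pattern over the 9 libraries was most like that of each of the 10 were found by Pearson's r of log2(CPM + 1) among 13450 genes, as a description, since the difference between cell types dominates r. For Epas1 they were Jag1 and Meg3 (r = 0.999 each), for Adm Dmpk (0.997) and Adgrl3 (0.995), for Hif1a Galnt7 and Efr3a (0.997 each) and for Egln3 Rflnb (0.994) and Spns2 (0.993). Vegfa was closest to Erbb3 (0.992) and Lrrtm2 (0.990) and P4ha1 to Ccdc28a (0.992) and Btg2 (0.991). Erbb3, Lrrtm2 and Meg3 were near the floor in SB28. Their means in mKate2- and mKate2+ cells were 0.342 and 0.206 CPM, 0.567 and 0.305 CPM, and 0.0513 and 0.0195 CPM. The genes that overlapped between populations had looser matches, Ndrg1 with Btg1 (0.950) and H2-M3 (0.904), Egln1 with Ppp1ccb (0.938) and Pnrc1 (0.921), and P4ha2 with Ly6a (0.892) and Pgm1 (0.886). Car9 was matched by Apln (0.979) and Chmp2b (0.975).

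In GRCm38, the protein-coding genes described here lie at chr12:73901375-73947530 (Hif1a, plus strand), chr17:86753700-86833410 (Epas1, plus), chr8:124908587-124949324 (Egln1, minus), chr12:54178981-54203860 (Egln3, minus) and chr17:46016993-46032369 (Vegfa, minus). The others are at chr7:110627661-110629820 (Adm, plus), chr4:43506966-43513729 (Car9, plus), chr15:66929318-66969640 (Ndrg1, minus), chr10:59323296-59373304 (P4ha1, plus) and chr11:54100095-54131665 (P4ha2, plus). The protein-coding gene Gm49321 shares 148 exonic bases (2.51%) with Hif1a on the same strand and was not analysed here. Antisense genes share exonic bases with Hif1a (Gm15283), Car9 (Gm12454) and Ndrg1 (Gm17035 and Gm2895), and they were at most at 0.876 CPM on average in any population. Whether the strand was used in counting is not given in the sources used here, so reads of such pairs may have been split.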

How the data were processed

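The values are counts of reads per gene, deposited by the authors without normalization as 1 table of 9 libraries. According to the submitters' processing notes, adapters were trimmed with Trimmomatic 0.36, reads were mapped to GRCm38 with STAR 2.5.2b and counted with featureCounts of Subread 1.5.2. The series' design text says that the astrocytes carried CellTrace Violet, yet its sort gates list the astrocytes as negative and the tumor cells as positive for this dye and negative for GFP, so libraries were taken by their names and checked against markers. Names, positions and exonic lengths came from GENCODE M21, with 345 gene IDs unnamed, and promoter sequences from RefSeq.

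R 4.3.3, edgeR 4.0.16, limma 3.58.1 and DESeq2 1.42.0 were used. Each comparison used the 6 libraries of its 2 populations, TMM normalization, genes above 1 CPM in at least 2 libraries, edgeR's quasi-likelihood test and adjustment over all genes. The standard error is the log2 fold change divided by the square root of F, and 95% intervals use the t distribution with the fit's degrees of freedom. Levels are CPM of the total count. Libraries of the same population differed by 15.8 to 134 in chi-square per degree of freedom, so none was a repeat deposit. Total counts of 24454561 to 39287841 leave counting error below the spread between replicates except at low counts, as for Epas1 in SB28, and a count of 0 allows up to 3.

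The 10 genes and all lists were chosen with earlier results of these data known. The text names all 10, all genes of HIF partners and oxygen sensing, the VEGF, adrenomedullin receptor, carbonic anhydrase and NDRG genes that passed the filter, up to 2 genes called in both comparisons per direction and target list, the listed gene with the smallest P value per direction between SB28 populations, overlapping genes and the 2 genes most like each of the 10. Other genes named, such as Ldha, Igfbp3, Pfkfb3, Eno2 and Pgk1, were chosen after their values were seen. On simulated counts for mKate2+ against mKate2- cells, with 11772 genes, edgeR recovered 199 of 200 changed genes with 6 false calls and DESeq2 199 with 14. Calls were at an adjusted P below 0.05. The changed genes averaged above 50 counts, and the median size of their estimated log2 fold changes was 1.02. Every simulated gene had the same dispersion and no library stood apart, so these counts do not give the power in the real libraries. Alternatives were DESeq2, upper-quartile and RLE normalization, other low-count filters, all 9 libraries in the fit, a replicate block, removal of each library's trend with gene length (loess, span 0.3, prior count 2) and each library left out. The comparisons by replicate number were chosen after seeing the data.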

Additional observations from a re-analysis of the deposited data

How the results depend on the processing

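The direction of the log2 fold change against astrocytes and an adjusted P value below 0.05 (edgeR, or DESeq2 where that was the alternative) held in 14 of 14 alternatives for Hif1a, Epas1, Egln3, Vegfa, Adm, Car9 and P4ha1 in both comparisons. The fold threshold was passed less steadily. Members called higher fell from 2 to 1, Hif1a being lost, in mKate2- against astrocytes with upper-quartile normalization and with at least 10 counts in every library, and in mKate2+ against astrocytes also with DESeq2 and RLE normalization. They ranged from 1 to 2 with 1 library left out, in each comparison. Vegfa lost its lower call in mKate2- cells in 4 of 14 alternatives, including no low-count filter, and in mKate2+ cells in 1 of 14. Over all alternatives the log2 fold change of Hif1a ran from 0.87 to 1.203 in mKate2- and from 0.84 to 1.16 in mKate2+ cells, and that of Vegfa from -1.19 to -0.89 and from -1.26 to -0.99. Between the SB28 populations, members called lower ranged from 0 to 1 with 1 library left out, Car9 being the gene and mKate2+ replicate 2 the library.

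Over all genes, the 23 higher and 20 lower calls between the SB28 populations depended on the choices. DESeq2 gave 62 higher, no low-count filter 224 and 35 lower, the fit of all 9 libraries 41 and 12, over 50 counts in every library 12 higher, removal of the length trend 13 higher, leaving out both libraries numbered 2 gave 5 higher, and an adjusted P value below 0.05 as the rule 0 and 0. With 1 library left out there were 6 to 310 higher and 16 to 70 lower, the largest numbers without mKate2+ replicate 1, and 233 and 36 without mKate2+ replicate 3, 6 and 16 without mKate2+ replicate 2, 10 higher without mKate2- replicate 2 and 15 higher without mKate2- replicate 1. The causes were not tested.

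Libraries of the same number deviated together in some pairs only. The correlation of their deviations was 0.055, 0.047 and 0.024 for numbers 1 to 3 between mKate2- and astrocytes, -0.15, 0.07 and 0.254 between mKate2+ and astrocytes, and -0.03, 0.11 and 0.275 between the SB28 populations. For libraries of different numbers it ran from -0.094 to 0.053, from -0.278 to 0.253 and from -0.21 to 0.093, in the same order. Between the SB28 populations, numbers 2 and 3 thus lay above every pair of different numbers, and number 1 did not. The numbers were not taken as pairs in the main fit, although all 3 populations came from the same 3 co-cultures. With the replicate number as a block, 13 genes were higher and 33 lower between the SB28 populations, and 1593 and 2969 in mKate2- and 1632 and 2966 in mKate2+ against astrocytes, with the same member counts as without the block.

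The count of 6 of 10 genes highest in both SB28 libraries numbered 2 was 7 of 10 with TMM-scaled CPM (39 of 56 targets, 13.6% of all genes) and 6 of 10 with mitochondrial counts left out (30 of 56, 7.43% of all genes). Depth limits Epas1 and Adm in SB28, at 18 to 69 counts per library, and 3 replicates limit the rest.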

Other observations

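Calls that differed between the comparisons with astrocytes concerned 3 target genes. Ero1l, an oxidase of the endoplasmic reticulum, was at 246, 507 and 264 CPM in mKate2- cells and 264, 317 and 237 CPM in mKate2+ cells, and was called higher than astrocytes, at 108, 231 and 171 CPM, in mKate2- cells (log2 fold change 1.02, edgeR adjusted P = 0.0323). Without mKate2- replicate 2 the log2 fold change was 0.60, without astrocyte replicate 1 it was 0.78, and the edgeR adjusted P was 0.0502 without astrocyte replicate 3, so each of these libraries decided the call. Hilpda, a lipid droplet gene, and Pgf, a VEGF relative, were called in mKate2+ cells with log2 fold changes of 1.24 and 1.201 and not without mKate2+ replicate 2, at 0.79 and 0.98. Pgf also passed the call in mKate2- cells without astrocyte replicate 3, at 1.01. The difference between the populations was called for none of the 3.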
